A study of Mus musculus with 6 samples.

Results

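Skeletal muscle contractile and myogenic genes were examined in wild-type and Wnt4 mutant embryonic mouse kidneys. The set holds 43 genes, chosen by name, and every probe set whose platform annotation gave 1 current gene symbol among them was taken. All 43 genes were on the array, through 60 probe sets, out of 8251 genes that the array named. The genes were picked with their high signals on the mutant arrays already known. Their differences between the groups are therefore given as a description, with no p-value for any of them. Counts past a threshold follow from the choice as well, and they support no claim about muscle genes as a group.

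The samples were whole metanephroi (the permanent kidney in the embryo) at E14.5, Theiler stage 22. Total RNA was amplified in 1 round and hybridised to 6 one-colour Affymetrix arrays. The 4 wild-type samples were labelled CD-1 and each pooled 2 kidneys. The 2 mutant samples carried the Wnt4tm1Amc allele, were labelled strain 129, and each pooled 8 to 10 kidneys of 4 to 5 embryos. The protocol text of every sample mentions CD-1 matings, the labels give the allele without saying whether both copies carried it, and sex is labelled unknown. Genotype, strain label and pool size cannot be told apart. Wild-type and mutant samples were pooled differently, so the spread in each group may measure different things.

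Sarcomeres, the contractile units of striated muscle, slide actin filaments past myosin filaments, and the troponins and tropomyosin on the actin filament make this depend on calcium. Most of these proteins come in embryonic, slow, fast and cardiac forms encoded by separate genes, and embryonic skeletal muscle makes several forms that the adult keeps only in heart or slow fibres. The program is switched on by the basic helix-loop-helix factors Myf5, Myod1, Myf6 and Myog together with Mef2 proteins. The kidney carries smooth muscle around its vessels and the ureter, and skeletal muscle is not counted among its tissues.

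Signals are linear probe set values scaled by the authors to a common level on every array. The median signal lay between 172.7 and 191.04 and the 40th percentile between 101.12 and 110.4. Wnt4 itself read 829, 739, 946 and 699 on the wild-type arrays, and 74.2 and 34.5 on the mutant arrays, although the position of this probe set relative to the altered exons is not stated. The kidney regulators Six2 and Wt1 gave mean signals of 2762 and 1107 in the wild type and 2550 and 785 in the mutant. The arrays of Six2 overlapped, while both mutant arrays of Wt1 lay below the wild-type range (limma difference -0.48, adjusted p = 0.0823). Other kidney markers differed more. Foxd1, a factor of the kidney stroma, rose from 1397 ± 141 to 4721 ± 40.3 (SD; limma difference 1.75, adjusted p = 4.93e-05). Pax2, a factor of nephron precursors and collecting ducts, read 226 ± 75.3 and 97.0 ± 25.9 (SD; limma difference -1.05, adjusted p = 0.0961), with both mutant arrays below the wild-type range. The part of such shifts among kidney cells in the muscle values was not tested. Array values are listed in the order of the replicate numbers throughout. The number of arrays limits the precision of every value.

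A probe set was kept if 2 or more arrays gave it a signal over that array's 40th percentile. This kept 32 of the 60 muscle probe sets, for 28 of the 43 genes, and left 28 probe sets under the filter, among them all those of 15 genes. Of the 32 kept, 3 exceeded that level on mutant arrays only and 6 on both mutant arrays and at most 1 wild-type array. Such probe sets were kept through the group in which they are high, so the kept genes are not a neutral sample of the set. Differences are mutant minus wild type on the log2(signal + 16) scale, which understates the change of dim genes, and each is given with its standard error from the limma fit. Where a gene had several kept probe sets, the brightest stood for it.

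Muscle genes were mostly higher on the mutant arrays. Both mutant arrays lay above all 4 wild-type arrays for 16 of the 28 kept genes and below them for 1, where 19.3% and 19.9% of all 6082 kept genes did so. The median difference was 0.92 over the 28 genes and 0.01 over all kept genes (-0.01 to 0.02 over the alternatives tried). As a description, 9 of the 28 lay past the limma threshold (adjusted p under 0.05) on the higher side and 0 on the lower, where 5.13% and 6.35% of all kept genes did. Without mutant replicate 1, or without mutant replicate 2, 4 genes were called, and Actc1, Tnni1, Tnnt1 and Actn3 were the 4 each time. The filter kept 25 muscle genes without mutant replicate 1 and 24 without mutant replicate 2. Tnnc1 was not among them, because only its mutant arrays exceeded the 40th percentile, so it was not tested there. Counted by probe set over all 6 arrays, 10 of the 32 kept sets were higher and 0 lower at that threshold, against 4.65% and 6.11% of all kept sets. The mutant arrays lay above the wild-type range for 19 of them and below it for 1, against 18.6% and 18.8%. Of the 28 sets under the filter they lay above it for 6 and below it for 1, against 10.5% and 5.52% of all sets under the filter. Of all 60 probe sets, the kept and the dim together, the mutant arrays lay above the wild-type range for 25 and below it for 2, against 15.7% and 14% of the 12422 probe sets on the array. Because the genes were chosen on this contrast, nothing is read from these shares. In RNA from whole organs, more muscle cells and more muscle RNA per cell cannot be told apart.

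**Figure D1:**
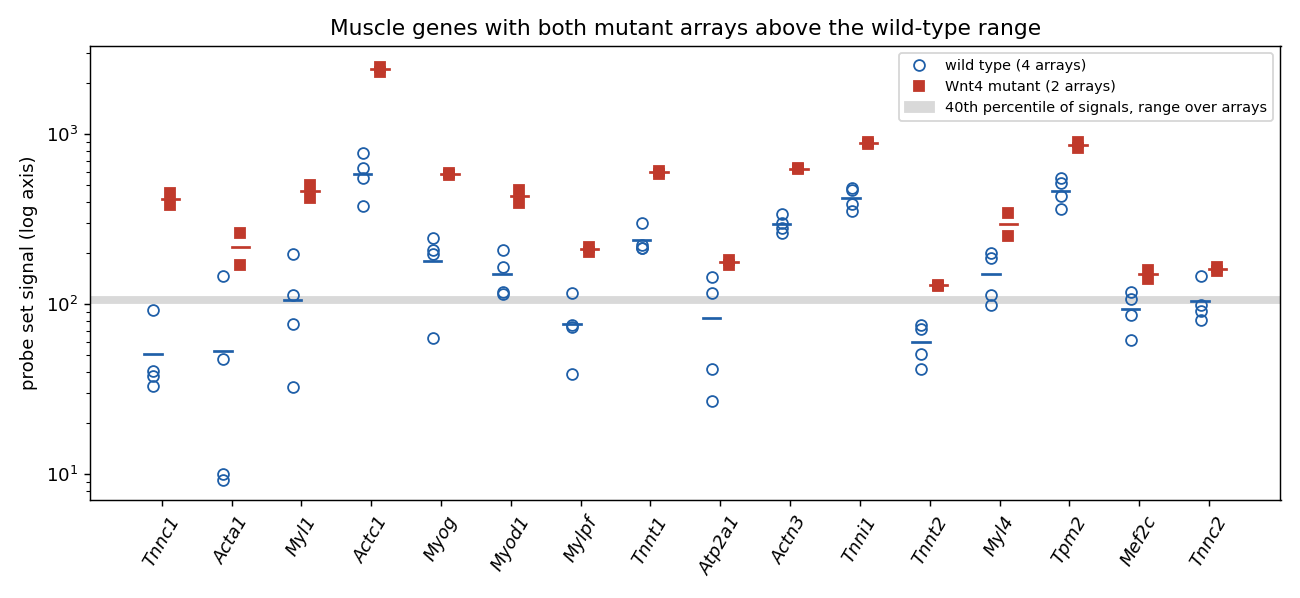
Probe set signal (log axis) on each array for the 16 muscle genes whose mutant arrays both lay above the wild-type range, ordered by difference. Open circles are the 4 wild-type arrays, squares the 2 mutant arrays, short lines the group means and the grey band the 40th percentile of signals, 101.12 to 110.4 over the arrays. The mutant means run from 129 for Tnnt2 to 2402 for Actc1.

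Of the 5 myogenic transcription factors, 3 had a kept probe set, and all 3 were higher on both mutant arrays than on any wild-type array. Myod1, which can turn other cells into muscle cells, read 115, 165, 117 and 209 on the wild-type arrays against 471 and 393 in the mutant, a difference of 1.45 ± 0.26 (SE). Myog, needed for myoblasts to fuse and differentiate, read 197, 244, 210 and 63.3 in the wild type and 578 and 595 in the mutant, a difference of 1.76 ± 0.42 (SE). The mutant arrays were 0.04 log2 units apart for Myog and 0.25 apart for Myod1. Wild-type replicate 4 had the lowest Myog signal and the highest Myod1 signal of its group. Mef2c, a partner of the myogenic factors that is also active outside muscle, read 86.8, 118, 108 and 61.8 against 141 and 159 at its kept probe set, a difference of 0.63 ± 0.33 (SE). Its 3 other probe sets stayed under the filter, overlapped between the groups and had differences of 0.26, -0.08 and 0.24.

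Myf5, the earliest of the myogenic factors in most muscles, was dim on every array. It read 2.33, 5.42, 1.04 and 4.40 in the wild type and 16.5 and 17.3 in the mutant, far under the 40th percentile. Myf6, which is prominent in mature fibres, read 38.4, 49.9, 53.4 and 73.3 against 110 and 30.1. The mutant arrays of Myf5 lay above the wild-type range and those of Myf6 fell on either side of it. Of the myogenic factors, then, Myod1 and Myog were the ones with mutant signals well over the 40th percentile.

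Myogenic basic helix-loop-helix factors bind the E-box, spelled CANNTG, so the stretches upstream of the muscle genes were read from RefSeq promoter windows (GRCm38.p6). Windows were found for 36 of the 43 genes, 45 in all, and the 250 bases before the start were searched on both strands. Actn3, Chrnd, Myf6, Myod1, Tcap, Tnni2 and Tnnt3 had no window. Of the 45 windows, 40 (88.9%) held an E-box, against 66.2% of all 32851 windows. The form CAGCTG, itself an E-box, was in 18 of the 45, against 13.0% of all. A TATAAA was found in 10 (22.2%) against 12.4%, and the CArG box, bound by serum response factor, in 4 (8.9%) against 1.5%. The mean GC content was 55.0% in the muscle windows and 53.2% in all. A match is a description of letters and not a site of binding.

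The sequences shown are the 250 bases before the start of 4 genes with the mutant arrays above the wild-type range, namely the factor Myog and 3 contractile genes, chosen to show windows with different numbers of E-boxes. Capitals mark each E-box, CArG box or TATAAA. Myog lies at chr1:134289754-134290003 (+), Tnnc1 at chr14:31208062-31208311 (+), the more upstream of the 2 Tnni1 windows at chr1:135799171-135799420 (+) and Actc1 at chr2:114052876-114053125 (-). All are GRCm38.p6 and written 5′ to 3′ along the gene.
Myog: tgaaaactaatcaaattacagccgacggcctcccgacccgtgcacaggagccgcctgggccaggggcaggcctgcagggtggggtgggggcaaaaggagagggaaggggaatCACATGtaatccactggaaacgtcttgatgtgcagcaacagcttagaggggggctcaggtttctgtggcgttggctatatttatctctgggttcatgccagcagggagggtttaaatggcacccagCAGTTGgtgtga
Tnnc1: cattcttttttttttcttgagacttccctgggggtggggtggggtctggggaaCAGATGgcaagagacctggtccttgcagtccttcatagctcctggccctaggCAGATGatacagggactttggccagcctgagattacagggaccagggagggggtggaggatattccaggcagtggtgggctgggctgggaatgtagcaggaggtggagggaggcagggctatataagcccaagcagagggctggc
Tnni1: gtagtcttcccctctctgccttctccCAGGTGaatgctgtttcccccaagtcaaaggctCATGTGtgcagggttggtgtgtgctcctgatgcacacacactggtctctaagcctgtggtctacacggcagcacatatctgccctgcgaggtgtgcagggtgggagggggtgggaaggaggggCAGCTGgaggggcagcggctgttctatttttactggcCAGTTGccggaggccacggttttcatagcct
Actc1: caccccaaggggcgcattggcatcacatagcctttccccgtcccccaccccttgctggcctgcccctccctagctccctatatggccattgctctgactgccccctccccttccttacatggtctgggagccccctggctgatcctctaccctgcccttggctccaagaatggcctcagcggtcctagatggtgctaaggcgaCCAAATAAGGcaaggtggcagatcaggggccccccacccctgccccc
Myog had 2 E-boxes, starting 138 and 12 bases before the start, and Tnnc1 had 2 with the same letters, 197 and 145 bases before it. Tnni1 had 4, with the CAGCTG form at 68 bases. The window of Actc1 had no E-box in its 250 bases and a CArG box 47 bases before the start.

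Slow and cardiac thin-filament genes showed some of the largest differences. Tnnc1, the calcium-binding troponin C of slow and cardiac muscle, read 40.4, 37.8, 33.3 and 92.7 on the wild-type arrays against 448 and 381 in the mutant. The difference was 2.76 ± 0.39 (SE), and no wild-type array exceeded the 40th percentile. Tnni1, the inhibitory troponin I of slow muscle, read 388, 484, 469 and 353 against 893 and 875, a difference of 1.05 ± 0.15 (SE). Tnnt1, the troponin T of slow muscle that ties the complex to tropomyosin, read 224, 215, 215 and 301 against 611 and 581 at its brighter probe set (161361_s_at), a difference of 1.28 ± 0.17 (SE). The fainter Tnnt1 probe set (101383_at) read 91.8, 187, 148 and 116 against 248 and 200, a difference of 0.69 ± 0.29 (SE), so both sets had the mutant arrays above the wild-type range. Suffixes _s_at and _f_at are the manufacturer's marks for probes that can match related transcripts, and such signals may be shared among them.

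Actc1, the cardiac form of sarcomeric actin and a main actin of embryonic skeletal muscle, read 551, 379, 775 and 631 in the wild type and 2497 and 2306 in the mutant at the brighter set (101029_f_at). The difference was 2.05 ± 0.23 (SE). The second set (101028_i_at) read 238, 81.2, 225 and 206 against 1460 and 1573, a difference of 3.01 ± 0.35 (SE), which was the largest positive difference of any kept probe set on the array. Wild-type replicate 2 was the lowest array at both sets. Tnnt2, the cardiac troponin T that embryonic skeletal muscle also makes, read 50.9, 41.7, 71.7 and 75.9 against 128 and 130, a difference of 0.96 ± 0.39 (SE), and was kept through the mutant arrays alone.

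The cardiac forms Tnni3 and Myh6 were under the filter, as were the slow and cardiac genes Myl2, Myl3 and Csrp3. The slow and cardiac gene Casq2 was kept. Tnni3, the cardiac troponin I, had wild-type signals of 13.6 to 97.9 and mutant signals of 65.1 and 79.9, and Myh6, the atrial myosin heavy chain, had 7.70 to 43.2 against 7.17 and 9.01. Myl2 and Myl3, the ventricular and slow myosin light chains, gave means of 18.5 and 12.5 in the wild type and 13.6 and 6.80 in the mutant. Csrp3, a Z-disc protein, gave 12.7 and 8.89. Casq2, the calcium store protein of heart and slow fibres, read 49.1, 121, 12.8 and 76.4 against 123 and 103. Its difference of 0.88 ± 0.62 (SE) was 0.46 without wild-type replicate 3, and its arrays overlapped. Thus among slow and cardiac genes the troponin genes Tnnc1, Tnni1 and Tnnt1 and the actin Actc1 were high in the mutant, while cardiac troponin I and the ventricular light chains stayed dim.

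Fast-fibre genes were higher at most kept sets. Myl1, a light chain of fast myosin that embryonic fibres already make, read 114, 32.6, 198 and 76.6 in the wild type and 419 and 502 in the mutant, a difference of 2.17 ± 0.50 (SE). Without wild-type replicates 2 and 4, left out together after the data were seen, it was 1.51. Mylpf, the regulatory light chain of fast muscle, read 76.0, 73.3, 117 and 38.6 against 203 and 217, a difference of 1.36 ± 0.39 (SE), and its dim second set read 2.01, 5.73, 5.53 and 2.97 against 16.7 and 39.2. Actn3, which crosslinks actin at the Z-disc of fast fibres, read 282, 299, 263 and 337 against 621 and 635, a difference of 1.05 ± 0.14 (SE). Its wild-type arrays spanned 0.34 log2 units, the smallest spread among the fast genes. A second Actn3 set (162164_f_at) overlapped between the groups, with 81.2 to 250 against 234 and 313.

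Tnnc2, the fast troponin C, read 81.2, 146, 91.3 and 98.8 against 166 and 156 at 162325_f_at, a difference of 0.58 ± 0.30 (SE). Its second set, under the filter, overlapped, with 10.1 to 25.8 against 7.00 and 38.3. Atp2a1, the calcium pump of fast fibres, read 26.9, 145, 116 and 41.9 against 171 and 181, a difference of 1.17 ± 0.55 (SE). Its second set was also under the filter and overlapped, with 12.9 to 42.3 against 19.8 and 96.7. At their kept sets both genes had mutant arrays above the wild-type range by less than the wild-type arrays differed among themselves. Casq1, the fast calcium store protein, overlapped, with 84.6 to 212 against 254 and 119, and its difference of 0.20 ± 0.40 (SE) changed sign without wild-type replicate 1 or mutant replicate 1. The fast troponins Tnni2 and Tnnt3 were under the filter on every array, with mean signals of 17.2 and 59.7 in the wild type and 18.3 and 70.2 in the mutant.

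Of the 5 myosin heavy chain genes, the motors of the thick filament, Myh7 and Myh4 had 1 kept probe set each, and neither of these had mutant arrays above the wild-type range. Myh3, the embryonic heavy chain, read 12.6, 3.63, 68.2 and 3.09 in the wild type and 113 and 96.1 in the mutant. Its mutant arrays lay above the wild-type range, and it missed the filter because only 1 array exceeded the 40th percentile. The perinatal chain Myh8 overlapped at both of its sets, with wild-type means of 22.1 and 40.6 and mutant means of 26.3 and 45.2. The slow and ventricular chain Myh7 gave opposite directions. At 161547_f_at it read 116, 198, 112 and 160 against 38.8 and 123, a difference of -0.87 ± 0.42 (SE) that was -0.19 without mutant replicate 1 and -1.54 without mutant replicate 2. At 98616_f_at, under the filter, it read 17.6, 27.6, 25.2 and 73.1 against 87.3 and 92.1. The adult fast chain Myh4 also disagreed, with 46.2 to 187 against 142 and 191 at 161545_r_at and 5.76 to 28.8 against 2.10 and 0.96 at 98488_at. No heavy chain gene thus had all its probe sets over the filter.

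Other embryonic forms were higher with wider spread. Myl4, the light chain of embryonic muscle and atrium, read 186, 99.1, 201 and 114 against 345 and 250 at its brighter set (100828_at), a difference of 0.95 ± 0.31 (SE), or 0.57 without wild-type replicates 2 and 4. At its second set (160487_at) it read 11.5, 5.38, 58.3 and 45.5 against 128 and 151, a difference of 1.94 ± 0.67 (SE). Chrng, the fetal subunit of the acetylcholine receptor at the nerve-muscle endplate, read 36.1, 157, 24.0 and 103 against 146 and 138, so its arrays overlapped. A second set, under the filter, had mutant arrays above the wild-type range, at 157 and 99.6 against 52.9 to 84.6. The difference of 0.96 ± 0.60 (SE) at the first set was 0.62 without wild-type replicate 3 and 1.79 without wild-type replicates 2 and 4.

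**Figure D2:**
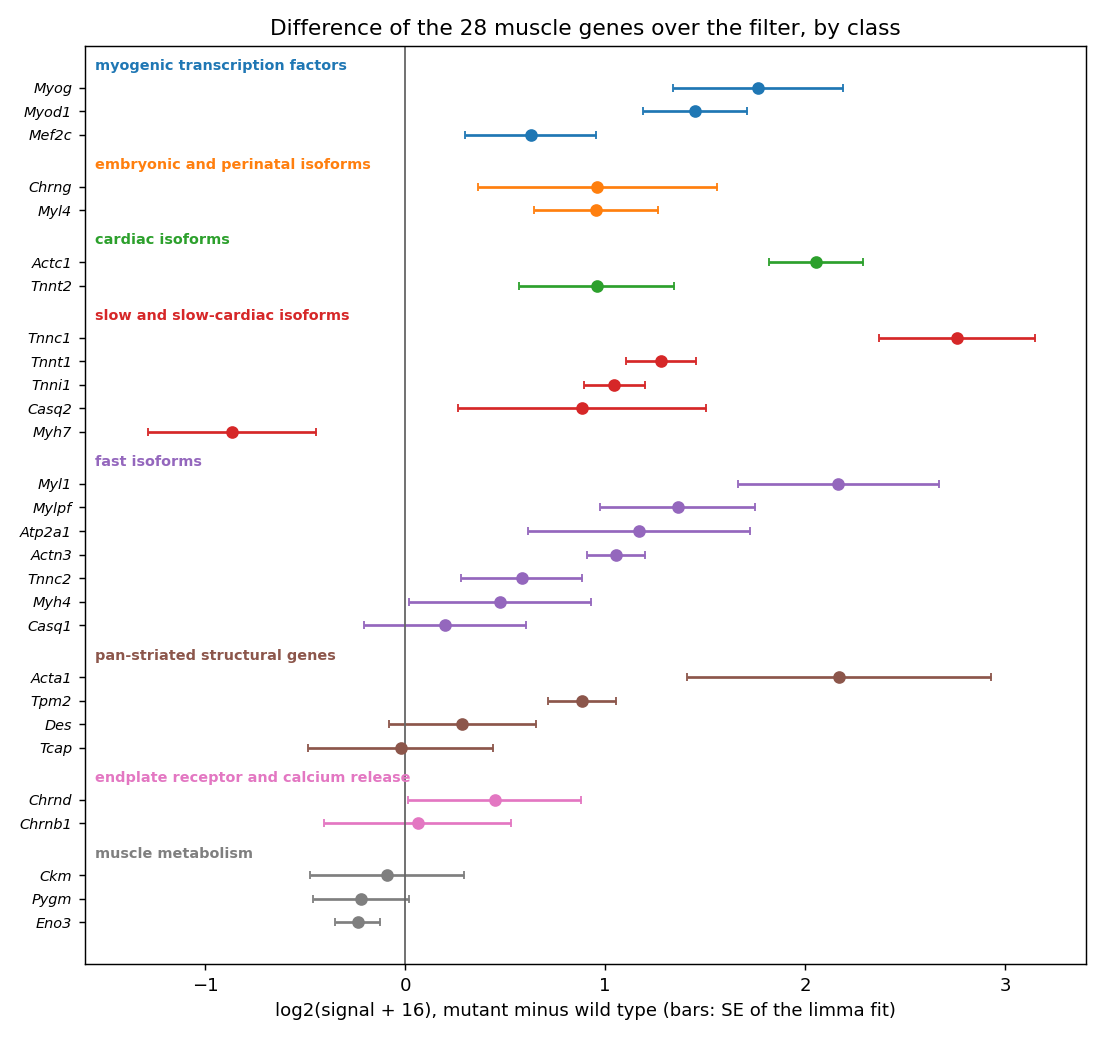
Difference between mutant and wild type on the log2(signal + 16) scale for the 28 kept muscle genes, grouped by class, with bars showing the standard error of the limma fit (4 wild-type and 2 mutant arrays). Tnnc1 has the largest value (2.76) and Myh7 the lowest (-0.87), and the 3 metabolic genes lie just below 0.

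Genes shared by all striated fibres were mixed. Acta1, the skeletal actin, read 47.4, 9.98, 146 and 9.30 in the wild type and 264 and 171 in the mutant. Its wild-type arrays spanned 2.68 log2 units, the widest of the kept genes, and the difference of 2.17 ± 0.76 (SE) fell to 1.17 without wild-type replicates 2 and 4. Tpm2, a tropomyosin of striated and smooth muscle, read 514, 553, 432 and 364 against 896 and 832, a difference of 0.88 ± 0.17 (SE), while a second set under the filter overlapped, with 8.09 to 39.2 against 26.8 and 41.4. Des, the muscle intermediate filament that smooth muscle also makes, read 128, 60.4, 118 and 168 against 140 and 140, and Tcap, the titin cap, read 148, 122, 52.6 and 120 against 160 and 64.1. Both overlapped, with differences of 0.29 and -0.02, and the sign of the latter changed in 6 alternatives. Actn2, the alpha-actinin of all sarcomeres, was under the filter, with means of 17.5 and 35.8.

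Of the endplate and calcium release genes, none of the kept sets separated the groups. Chrnb1 and Chrnd, the beta and delta subunits of the acetylcholine receptor, had differences of 0.06 ± 0.47 (SE) and 0.45 ± 0.43 (SE), and the former changed sign in 4 alternatives. Chrna1, the alpha subunit, read 20.7, 44.7, 33.1 and 6.15 in the wild type and 115 and 77.1 in the mutant, above the wild-type range, although only 1 array exceeded the 40th percentile. Ryr1, the calcium release channel, was under the filter with 8.93 to 71.9 against 109 and 66.6.

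None of the metabolic muscle genes had mutant arrays above the wild-type range. Eno3, the muscle enolase of glycolysis, read 579, 592, 645 and 578 in the wild type and 511 and 498 in the mutant, a difference of -0.24 ± 0.11 (SE), and was the 1 kept gene with both mutant arrays below the wild-type range. Pygm, the muscle glycogen phosphorylase, read 237, 227, 174 and 148 against 160 and 168, a difference of -0.22 ± 0.24 (SE). Ckm, the muscle creatine kinase, read 190, 97.6, 80.3 and 125 against 82.2 and 145, a difference of -0.09 ± 0.38 (SE) that changed sign without wild-type replicate 1 or mutant replicate 1. A second Ckm set, under the filter, overlapped with a difference of 0.39. Mb, the oxygen-binding myoglobin, was under the filter at both sets. The class median of its 3 kept genes was -0.22, beside 0.26 for the 2 endplate and calcium release genes, 0.59 for the 4 shared structural genes and 0.96 for the 2 embryonic genes. It was 1.05 for the 7 fast genes, 1.05 for the 5 slow genes, 1.45 for the 3 myogenic factors and 1.51 for the 2 cardiac genes. These medians come from the contrast on which the genes were chosen, and the differences between classes were not tested.

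**Figure D3:**
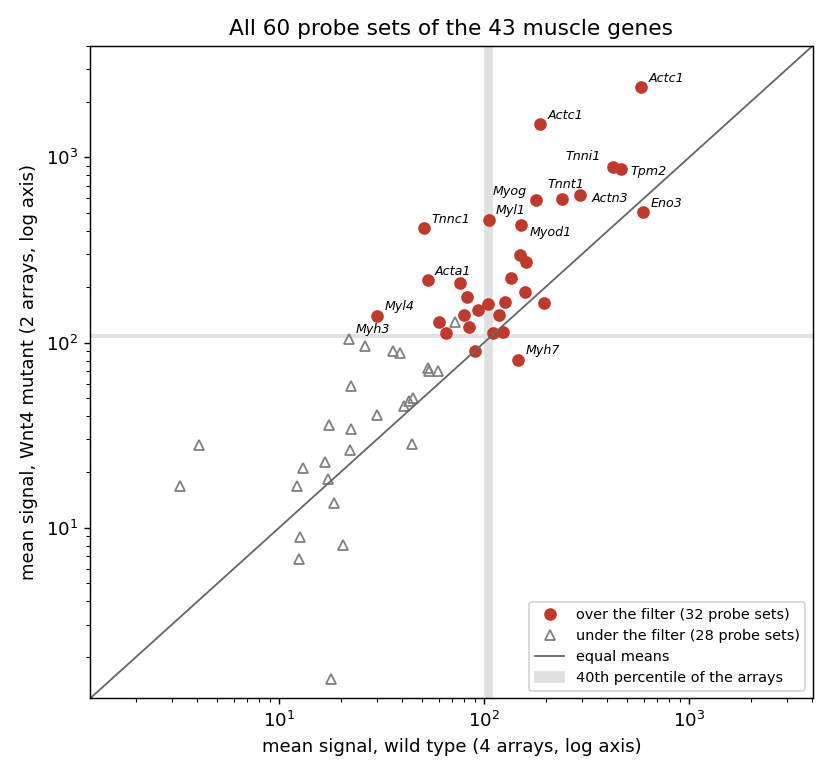
Mean signal in the wild type (4 arrays) against mean signal in the mutant (2 arrays), both on log axes, for all 60 probe sets of the 43 genes. Filled circles are the 32 sets over the filter, open triangles the 28 under it, the line marks equal means and the grey bands the 40th percentile of the arrays. By mean log2 value the mutant was higher for 48 of the 60 sets, where 53.7% of all probe sets were. Among the 28 under the filter it was higher for 21, where 56.1% of all such sets were. The genes were chosen on this contrast.

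Over the 28 kept genes the 4 wild-type arrays had no common order, although some contractile genes shared one. The lowest of the 4 arrays was replicate 4 for 9 of the 28 genes, replicate 3 for 8, replicate 2 for 7 and replicate 1 for 4. Replicate 4 was the lowest for 32.1% of these genes and for 32.6% of all kept genes. The highest was replicate 2 for 9, replicate 3 for 7 and replicates 1 and 4 for 6 each. Replicate 3 was the highest for Actc1, Myl1, Mylpf, Myl4 and Acta1, and replicate 4 the highest for Tnnc1, Tnnt1, Myod1 and Actn3. In Myl1, Mylpf, Myl4 and Acta1, replicate 1 came second, and replicates 2 and 4 lay below the others. The same held for Myh3, under the filter. This order was picked out after the values were seen. Its share over all kept genes was not computed, so nothing is read from it. Summed over the 28 kept genes, each by its brightest set, the signal was 4995, 5089, 5236 and 4729 on the wild-type arrays against 10763 and 10320 in the mutant. In this sum, where bright genes weigh most, no single wild-type pool was low and no single mutant pool high.

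Other muscle genes that are not among the 43 were taken from lists of sarcomere, regulator, membrane and metabolic genes, 78 measured and 46 kept in all. Of the 46, 2 rose and 3 fell in limma (adjusted p under 0.05 over 7981 probe sets), and 41 did not pass, where 5.13% of all kept genes rose and 6.35% fell. These counts are 4.3% and 6.5% of the 46, close to the shares over all kept genes, so the genes named next do not set these lists apart. The median difference of the 46 was 0.17 beside 0.01 for all kept genes. This median lay between 0.02 and 0.22 over the alternatives, with 0.07 without mutant replicate 1, 0.02 without mutant replicate 2 and 0.08 when the filter stood at the 60th percentile.

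Among 12 kept regulators and precursor genes, 2 rose and 0 fell in limma (5 and 0 unadjusted). Unadjusted counts, here and below, are at an unadjusted limma p under 0.05. The share of all kept genes at that threshold was not computed, so nothing is read from these counts. Eya2, a transcriptional cofactor in muscle precursors, read 165, 180, 199 and 182 in the wild type and 405 and 378 in the mutant, a rise of 1.05 ± 0.17 (SE; limma adjusted p = 0.00514). Tcf12, a widely expressed partner with which myogenic factors bind E-boxes, read 2286, 2234, 2184 and 3214 against 4057 and 4333, a rise of 0.77 ± 0.15 (SE; limma adjusted p = 0.0142). The call for Eya2 was lost without mutant replicate 1 (adjusted p = 0.0754) and without mutant replicate 2 (0.0581) in limma, with a lowest value of 0.00208 over the alternatives. That for Tcf12 was lost without mutant replicate 1 (0.0864), without mutant replicate 2 (0.136) and without the variance trend (0.0585), with a lowest value of 4.09e-04. Tcf4, another such partner, had 0.67 (limma adjusted p = 0.0570) and Bin1, which shapes the membrane tubules of muscle, had 0.25 (limma adjusted p = 0.132). Genes of this list with no kept set are named outside the rule for list genes. The precursor factor Pax3 overlapped between the groups there, as did Cdon, Fst and Msc. Mstn and an Itga7 set had both mutant arrays above the wild-type range, and the other Itga7 sets overlapped. Of the 12 kept genes, 5 had mutant arrays above the wild-type range and 0 below it.

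Among 11 kept sarcomere genes outside the set, 0 rose and 1 fell in limma (1 and 1 at an unadjusted p under 0.05). Fhl1, a LIM protein of muscle that other tissues also make, read 971, 805, 857 and 645 against 360 and 440, a fall with a difference of -0.997 ± 0.17 (SE; limma adjusted p = 0.00671). The call was lost without mutant replicate 1 (limma adjusted p = 0.0820), and the lowest value over the alternatives was 0.00112. Tpm1 and Capza1, a tropomyosin and an actin-capping subunit made in many cells, had 0.02 and -0.04 (limma adjusted p = 0.88 and 0.834). Mybph, a myosin-binding protein chosen here after its values were seen, had 0.85 (limma adjusted p = 0.0895), with 84.5, 91.6, 84.1 and 101 against 202 and 152.

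Among 11 kept membrane and endplate genes, 0 rose and 1 fell in limma (1 and 1 unadjusted). Dag1, the dystroglycan that anchors fibres and epithelia to basement membrane, read 3670, 3058, 3277 and 3451 against 2089 and 2261, a difference of -0.62 ± 0.10 (SE; limma adjusted p = 0.00424). Without mutant replicate 1 the adjusted p in limma was 0.0679, and the lowest over the alternatives was 0.00122. A second Dag1 set had -0.35 (limma adjusted p = 0.260). Agrn, the signal that gathers receptors at the endplate, had -0.16 and Utrn, a dystrophin relative, -0.29 (limma adjusted p = 0.332 and 0.588). Dmd, the dystrophin gene, was named outside the rule for list genes, was under the filter on every array and overlapped. Of the other genes with no kept set, Musk, Ryr2 and Sln had both mutant arrays above the wild-type range. A Clcn1 set lay below that range, and Ache, Cacng1, Sgca and Sgcd overlapped.

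Among 12 kept metabolic genes outside the set, 0 rose and 1 fell in limma (1 and 2 unadjusted). Aldoa, an aldolase of muscle and many other tissues, read 6364, 6867, 6715 and 6410 against 4932 and 4578, a difference of -0.47 ± 0.08 (SE; limma adjusted p = 0.00670). A second Aldoa set had -0.04 (limma adjusted p = 0.926), the mean of both sets did not pass (0.248), nor did the fit without mutant replicate 2 (0.113), and the lowest value over the alternatives was 0.00212. Slc25a4 and Gys1, an ATP carrier and a glycogen synthase, had -0.19 and -0.00 (limma adjusted p = 0.264 and 0.982).

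**Figure D4:**
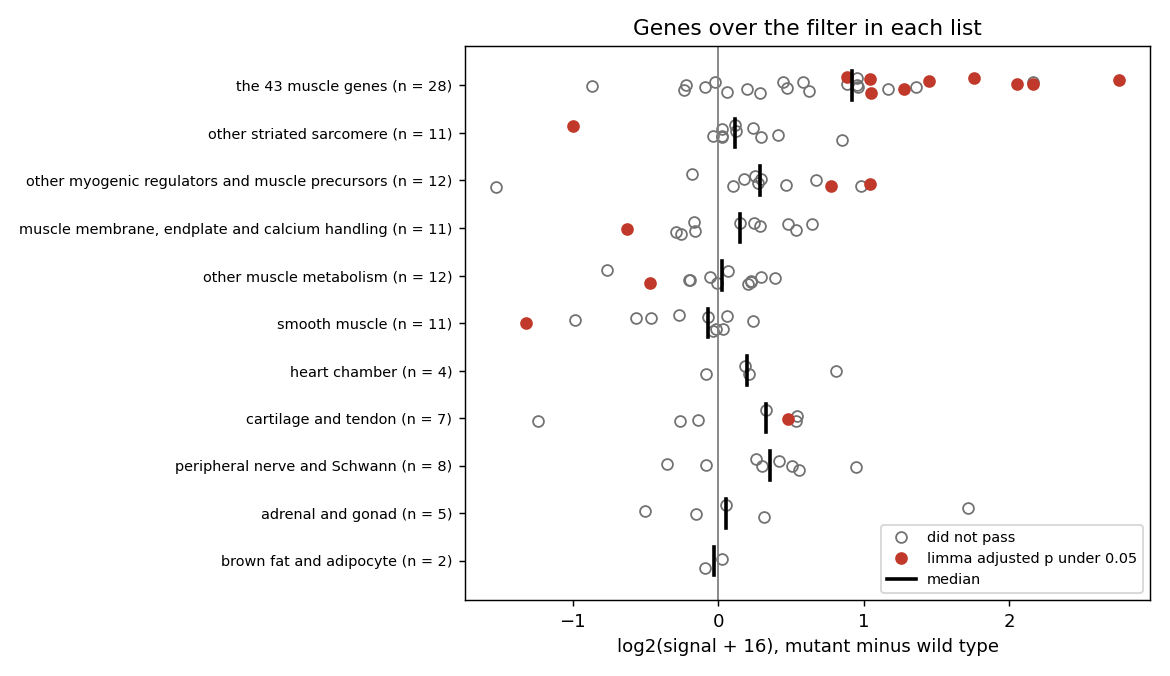
Difference between mutant and wild type on the log2(signal + 16) scale for each kept gene of the muscle set and of 10 other lists, with points spread vertically for view. Filled points had a limma adjusted p under 0.05, open points did not, and black bars mark list medians. The median is 0.92 for the muscle set, whose genes were chosen on this contrast, and -0.07 for smooth muscle.

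Of the 11 smooth muscle genes over the filter, 1 fell and 0 rose in limma (2 and 0 at an unadjusted p under 0.05), and the list median was -0.07. Tagln, an actin-binding protein of smooth muscle, read 669, 546, 556 and 677 in the wild type and 228 and 242 in the mutant, a difference of -1.32 ± 0.14 (SE; limma adjusted p = 6.61e-04). Acta2, the smooth muscle actin, was named after its values were seen and had -0.27 (limma adjusted p = 0.376), and Mylk, the kinase that drives smooth muscle contraction, had -0.07 (limma adjusted p = 0.765). Tpm4, a tropomyosin of non-muscle cells, had -0.02 (limma adjusted p = 0.926). The summed signal of all 14 smooth muscle probe sets was 13967 to 16474 in the wild type and 14539 and 14244 in the mutant.

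Markers of other tissues were measured on the same arrays. Their unadjusted counts again stand without a share over all kept genes, and nothing is read from them. For the heart chambers, 4 of 10 measured genes were kept and 0 passed in limma (0 unadjusted), with a median of 0.20. Chamber genes differed in level, and those named here were chosen after their values were seen. Nkx2-5, Myl7 and Nppb were under the filter, while Nppa, an atrial hormone, was over it on all 6 arrays, with 164 to 250 against 172 and 199. Gata4 and Gata6 had 0.21 and 0.18 (limma adjusted p = 0.566 and 0.635), and the summed signal of 13 probe sets was 965 to 1370 in the wild type and 1352 and 1448 in the mutant. For cartilage and tendon, 7 of 14 were kept, 1 rose and 0 fell in limma (3 and 0 unadjusted), with a median of 0.33, and the summed signal of 17 probe sets was 2335 to 2487 against 3269 and 2785. Scx, a transcription factor of tendon, rose by 0.48 (905 ± 100 to 1263 ± 69.6, SD; limma adjusted p = 0.0419), a call lost in 7 of 16 alternatives, among them without mutant replicate 1 (0.268), without mutant replicate 2 (0.173), without wild-type replicate 1 (0.0681) and without wild-type replicate 3 (0.0769), with a lowest value of 0.0144. Col9a1 and Col9a2, collagens of cartilage, had 0.53 and 0.54 (limma adjusted p = 0.0966 and 0.0771). The genes of this list with no kept set are named after their values were seen. Of these, Col2a1, Acan, Col10a1 and Col11a2 overlapped between the groups. Matn1, Matn3 and Hapln1 had both mutant arrays above the wild-type range, at dim signals.

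For peripheral nerve and Schwann cells, 8 of 12 measured genes were kept and 0 passed in limma (4 higher and 0 lower unadjusted), with a median of 0.36, and the summed signal of 20 probe sets was 2583 to 2808 in the wild type and 3439 and 3179 in the mutant. Erbb3, a growth factor receptor of Schwann cells and epithelia, had 0.42 and the myelin gene Pmp22 -0.08 (limma adjusted p = 0.0660 and 0.728). Chga, Stmn2 and Gap43, named after their values were seen, had 0.95, 0.55 and 0.51 (limma adjusted p = 0.133, 0.134 and 0.12). A second kept Stmn2 set had -0.30. At their brightest sets, Erbb3, Chga, Stmn2 and Gap43 had both mutant arrays above the wild-type range, while Pmp22, Mbp, Sox10 and Th overlapped. For adrenal and gonad, 5 of 10 were kept and 0 passed in limma (2 higher and 1 lower unadjusted), and the summed signal of 18 probe sets was 4471 to 5606 against 4971 and 4823. Nr5a1, the steroidogenic factor, had 0.31 and the electron carrier Fdx1 -0.15 (limma adjusted p = 0.128 and 0.643), and the steroid enzymes Cyp11a1, Cyp17a1 and Hsd3b1 were under the filter, while the steroid enzyme Cyp21a1 was over it on all 6 arrays, with means of 562 and 584. Inha, an inhibin subunit, read 30.4, 27.1, 41.6 and 87.8 against 196 and 161, a difference of 1.72 ± 0.48 (SE; limma adjusted p = 0.0533). Scarb1, a lipoprotein receptor, had -0.50 (limma adjusted p = 0.0571), and these enzymes and genes were chosen after their values were seen. For adipocytes, 2 of 6 were kept and 0 passed in limma (0 unadjusted), and 7 probe sets summed to 384 to 829 against 689 and 555, with Cebpa at 0.03 and Fabp4 at -0.09 (limma adjusted p = 0.966 and 0.913). Cartilage, tendon and nerve lists thus had summed signals above the wild-type range on both mutant arrays, as the muscle genes did. The cartilage and tendon sum leaned on its brightest gene, the tendon factor Scx, at 765, 995, 904 and 955 against 1312 and 1213. Without Scx, the sum of mutant replicate 2 fell within the wild-type range. Of the 7 kept genes of that list, 4 had a higher mean in the mutant and 3 a lower one. The part of such tissues in the muscle signal was not tested.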

How the data were processed

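Gene expression was measured on 6 one-colour Affymetrix arrays, 4 wild-type and 2 Wnt4 mutant. Each deposited value is the intensity of a probe set on a linear scale, and the authors used GCOS, per the submitters' processing notes. Settings were not given in the sources used here. Each deposited column has a mean of 500.27 to 500.29 once the lowest and highest 2% are removed, so the arrays had been scaled.

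Probe sets were named from the platform annotation, updated by gene identifier to RefSeq (GRCm38.p6). Of 12422 probe sets, 10833 had 1 symbol, 396 had several and 1193 had none, and 66 controls were set aside. Values were analysed as log2(signal + 16) with limma 3.58.1 under R 4.3.3 (lmFit, eBayes with a trend, Benjamini-Hochberg over 7981 kept probe sets, threshold 0.05), checked on simulated data. Motifs and figures used Python 3.11.15.

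The muscle genes, their classes and the other lists were chosen with earlier results of these data known. Named list genes are up to 4 passing in each direction and 2 brightest that did not pass. Further list genes are named outside this rule, with their values known. The p-values measure the spread between these pools. Alternatives changed the offset, filter, normalization, probe set rule, weights, block, trend and samples.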

Additional observations from a re-analysis of the deposited data

Results flagged for a closer look

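In 3 kept muscle probe sets, 1 wild-type array stood apart from the other 3 by a gap above Dixon's critical share of the range, where chance flags about 1 group in 20. For Actc1 at 101028_i_at, wild-type replicate 2 was low at 81.2 (gap 0.858 of the range). For Myog at 103053_at, wild-type replicate 4 was low at 63.3 (0.834). For Tnnt1 at 161361_s_at, wild-type replicate 4 was high at 301 (0.875). Both mutant arrays lay above every wild-type array at all 3.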

How the results depend on the processing

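Leaving out each array in turn gave 4 to 11 muscle genes called higher and 0 called lower, a median muscle difference of 0.78 to 1.00, 114 to 448 probe sets higher and 188 to 553 lower on the whole array, and 0 to 5 genes higher in the other lists. Without 1 mutant array, the other is assumed to vary like the wild type. The muscle median was 1.05 with an offset of 1, 0.63 with an offset of 64, 0.61 with no filter, 1.36 with a filter at the 60th percentile, where 10 genes are left, and 0.71 with a replicate block. Arrays with the same replicate number did not deviate together (r of 0.003 and -0.015), and no source pairs them. With the block, 10 muscle genes were called, 9 of them shared with the fit without it. Array weights gave 613 probe sets higher and 738 lower, and 10 genes higher in the other lists. These list genes numbered 5 with a filter at the 60th percentile, 5 when probe sets of a gene were averaged and, in an alternative added after seeing the data, 6 without wild-type replicates 2 and 4. The causes were not tested. No called muscle gene, and no list gene that passed, changed sign under any alternative run. Array number and dim signals limit the precision.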
